A study of Mus musculus with 12 samples.

Results

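*Tfrc*, *Trf*, *Steap3*, *Slc11a2*, *Fth1*, *Ftl1*, *Slc40a1*, *Aco1*, *Ireb2* and *Hmox1* are 10 genes through which mammalian cells take up, store, release and sense iron. They are described here in bulk tumors of a mouse rhabdomyosarcoma (RMS), as 10 of the 38898 genes that the estimated counts cover. The group was chosen by earlier results in the same tumors, in which *Tfrc* was among the genes lower in mice given both drugs of the study than in mice given vehicle. The other 9 were added for their roles in iron handling. The values of the combination against vehicle therefore selected the group, and they are given as a description with no test, as are all values of *Tfrc* that involve the vehicle or the combination tumors. *Tfrc* (Entrez gene 22042) lies at chr16:32608896-32632794 of GRCm38, and of the 10 only *Slc11a2* overlaps another annotated gene, the long noncoding *Gm5475*, with a mean of 0.00804 CPM. All 10 passed the filter on low counts and are among the 17602 genes tested.

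Most cells take up iron as transferrin, which binds the transferrin receptor at the surface and is carried into endosomes, where Steap3 reduces the iron and the transporter DMT1, the product of *Slc11a2*, moves it to the cytosol. Ferritin, a shell of heavy and light chains, stores what is not used, ferroportin exports it, and heme oxygenase 1 frees iron from heme. When iron is scarce, the iron regulatory proteins IRP1 (*Aco1*) and IRP2 (*Ireb2*) bind hairpins in messenger RNAs, called iron-responsive elements, which protects the transferrin receptor mRNA from decay and blocks translation of ferritin and ferroportin mRNA, so that ferritin protein can change while its mRNA does not. Dividing tumor cells have a high demand for iron and often carry much transferrin receptor.

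The tumors grew from Rd76-9, a mouse line of embryonal RMS, whose source tumor arose in a C57BL/6 female after methylcholanthrene. The cells were injected into the flank of WT mice of strain C57/Bl6J, 8 to 12 weeks old, and tumors were collected at day 16 (ages are from the methods of the study). There were 4 groups of 3 tumors. Vehicle mice (m1 to m3) received saline and empty nanoparticles, VCR mice (m4 to m6) vincristine at 0.25 mg/kg, RCM1 mice (m7 to m9) 8 µg of the FOXM1 inhibitor RCM1 in folic acid nanoparticles (RCM1-NP FA), and VCR + RCM1 mice (m10 to m12) both drugs at those doses. The treatment label of the vehicle tumors also names RCM1 nanoparticles, so tumors were grouped by title. A single line in a syngeneic host, measured as bulk tumor, limits what the groups stand for. Between 29342195 and 32108055 reads were assigned per tumor.

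The label of an embryonal muscle tumor was checked on 8 marker genes. *Cdh15*, a cadherin of muscle precursors, lay between 125 and 202 CPM (counts scaled to the depth of each library) over the 12 tumors, and *Myf5*, an early myogenic factor, between 48.9 and 69.9 CPM. The factors *Myod1* (at most 2.38 CPM) and *Myog* (at most 2.16 CPM), the fusion protein gene *Mymk* (at most 0.571 CPM, the 1 marker under 1 CPM in every tumor) and *Myh3* (at most 2.57 CPM) were near 0, and *Chrna1* reached 9.03 CPM. *Des*, which adult muscle also expresses, ran from 7.76 (m2) to 573 CPM (m9) and, like the transcripts of adult muscle fibers given further on, differed widely between the tumors.

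Levels of different genes are compared in TPM, a share of all transcripts that accounts for their length. The ferritin chains were by far the most abundant of the 10, with a mean over the 12 tumors of 4830 TPM for *Ftl1*, rank 16 among the genes tested, and 3040 TPM for *Fth1*, rank 50. *Hmox1* followed with 195 TPM, and its lowest tumor (80.9 TPM) was above the highest tumor of *Trf* (59.9 TPM). Below it stood *Trf* with 46.9, *Aco1* with 31.4, *Tfrc* with 29.6, *Steap3* with 23.9, *Ireb2* with 19.2 and *Slc11a2* with 17.6 TPM. Each of these 6 overlapped its neighbors among them over the 12 tumors. *Trf* and *Aco1* were above *Steap3*, *Ireb2* and *Slc11a2* without overlap, and *Steap3* was above *Slc11a2*. *Slc40a1* was lowest by far, with 2.29 TPM and only 75 to 224 counts per tumor, so its values carry the most counting noise of the 10.

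The genes also differed in how much they varied. The coefficient of variation of CPM over the 12 tumors was 41.1% for *Tfrc*, 32.8% for *Hmox1* and 30.7% for *Slc40a1*, above the upper quartile of all genes tested (27.8%). It was 5.67% for *Aco1* and 6.3% for *Slc11a2*, below the lower quartile (9.06%), and the remaining 5 lay between 10.8% (*Steap3*) and 20.5% (*Trf*) around the median of 14.3%. The value of *Tfrc* includes the difference for which it was chosen, so its place in this order is not read further. As a ratio of highest to lowest TPM, *Hmox1* (3.46) was above *Tfrc* (3.35). A high or low value in these bulk samples is a level in all cells of the tumor together, in which fewer cells of a type and less RNA per cell cannot be told apart.

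**Figure D1:**
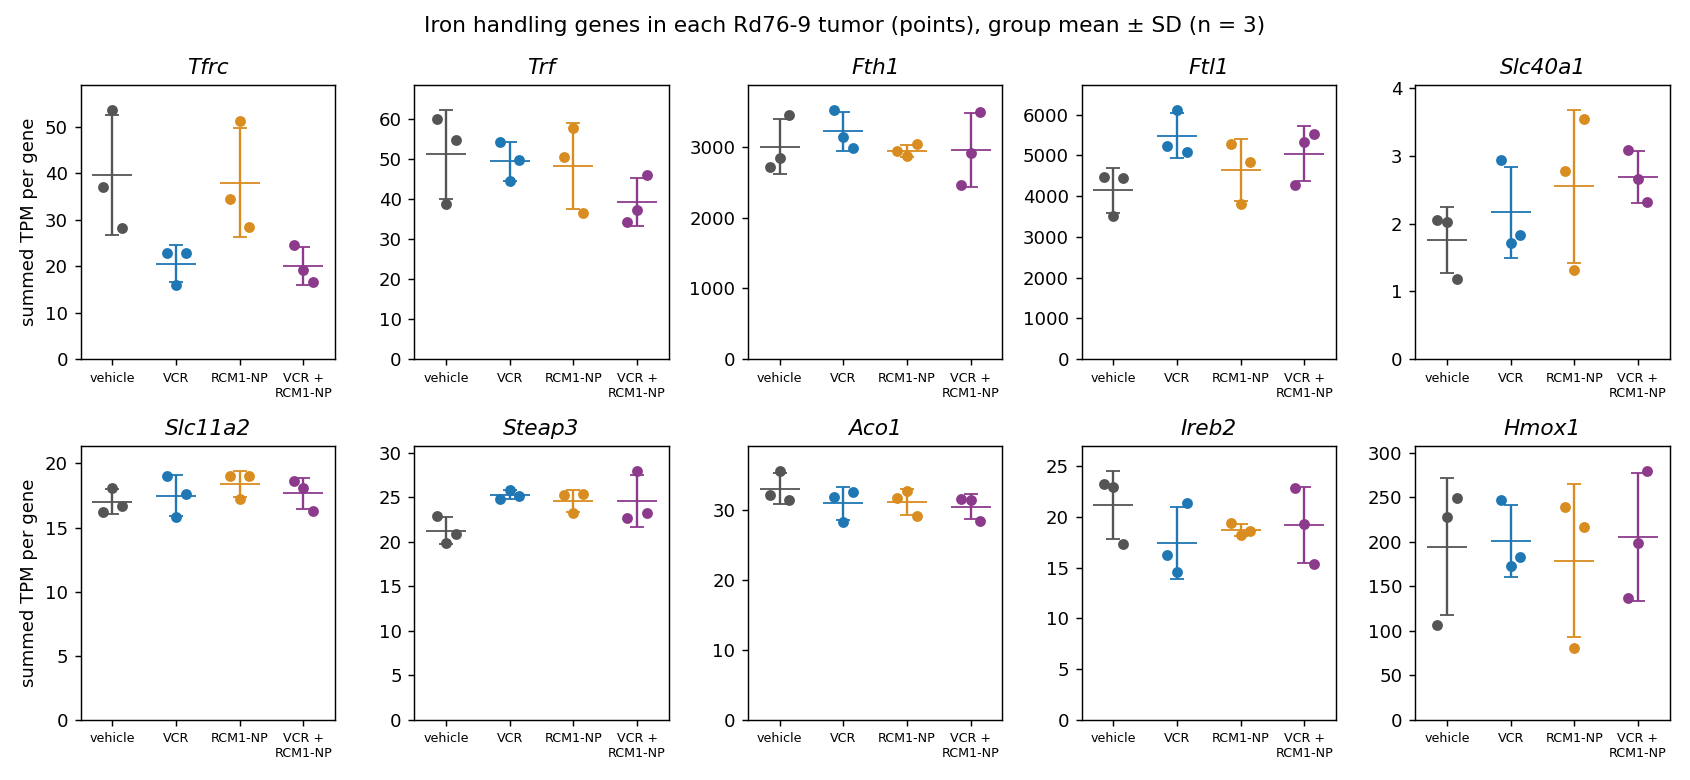
Summed TPM per gene (vertical axes, each starting at 0) of the 10 iron handling genes in each of the 12 tumors (points), with the mean and standard deviation of each group of 3 tumors (bars). *Tfrc* lies between 16.0 and 24.5 TPM in the 6 tumors of mice given VCR and between 28.3 and 53.7 TPM in the other 6. The split includes the values that chose *Tfrc*, and its share over all genes was not counted.

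*Tfrc* encodes the transferrin receptor, the gate for transferrin iron. Its level was 37.1, 53.7 and 28.3 TPM in the vehicle tumors, 22.8, 16.0 and 22.9 TPM in the VCR tumors, 34.4, 51.2 and 28.5 TPM in the RCM1 tumors, and 24.5, 19.1 and 16.5 TPM in the tumors given both. The 6 tumors of mice given VCR, alone or with RCM1, were the 6 lowest, and the vehicle and RCM1 groups covered nearly the same range. This split includes the combination and vehicle values that chose *Tfrc*, and how many of all genes split this way was not counted. Group means were 39.7 ± 12.9 (SD, n = 3) for vehicle, 20.6 ± 3.93 for VCR, 38.0 ± 11.8 for RCM1 and 20.1 ± 4.09 TPM for both. As a description, *Tfrc* had a log2 fold change against vehicle of -0.88 in the VCR group (95% interval -1.41 to -0.35), -0.0193 after RCM1 (-0.55 to 0.51) and -0.99 after both (-1.53 to -0.46). These 3 comparisons share the vehicle tumors. It was -0.97 for both drugs against RCM1 (-1.51 to -0.44) and -0.11 for both against VCR (-0.65 to 0.42).

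The fold change of VCR against RCM1 uses neither the vehicle nor the combination tumors, so it was tested for *Tfrc*, with the spread estimated from all 12 tumors. All 3 VCR tumors were below all 3 RCM1 tumors, with a log2 fold change of -0.86 (SE 0.243, 95% interval -1.39 to -0.33). The quasi-likelihood test of edgeR, with p-values adjusted by Benjamini-Hochberg over all 17602 genes and a threshold of 0.1, gave an adjusted p of 0.901, so *Tfrc* was not called. Fitted to only the groups compared, edgeR gave a log2 fold change of -0.87 for *Tfrc* in VCR against RCM1 (adjusted p = 0.81). Over 25 alternative settings the change stayed between -1.05 and -0.56 and the adjusted p ran from 0.0234 to 1.0. It passed in 1 of them, DESeq2 fitted to only the groups compared (adjusted p = 0.0234).

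*Trf* encodes transferrin, the ligand of that receptor, which is made mainly in liver and is found in other cells at lower levels. It stood at 59.9, 38.6 and 54.7 TPM in the vehicle tumors, 54.1, 44.4 and 49.6 after VCR, 50.4, 57.6 and 36.5 after RCM1, and 34.2, 37.3 and 45.8 TPM after both. The combination held the lowest tumor (m10) and the lowest mean, 39.1 ± 6.02 TPM, but m2 (vehicle), m5 (VCR) and m9 (RCM1) fell within its range. In CPM, all 3 combination tumors were below all 3 VCR tumors, with a log2 fold change of -0.41 (SE 0.207, adjusted p = 0.855), which edgeR did not call. The hepatocyte list of 6 genes summed to between 0.254 and 2.18 CPM, with *Alb*, the most abundant over all 12 tumors, at most at 0.336 CPM. Only *Fgb* passed 1 CPM, with 1.75 CPM in m2, or 80.0% of the sum there.

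Inside the endosome, *Steap3* encodes the reductase that turns ferric into ferrous iron. The vehicle tumors had 22.9, 19.9 and 20.9 TPM, the VCR tumors 24.8, 25.8 and 25.2, the RCM1 tumors 25.3, 23.2 and 25.4, and the tumors given both 22.7, 28.0 and 23.2 TPM. Every tumor of a single drug group was above every vehicle tumor, and the combination overlapped vehicle through m10. Relative to the vehicle tumors, VCR gave a log2 fold change of 0.32 (SE 0.099, higher in 3 of 3 tumors, adjusted p = 0.11) and RCM1 one of 0.24 (SE 0.099, higher in 3 of 3, adjusted p = 0.472), and edgeR called neither. After VCR the adjusted p ran from 0.0516 to 0.396 over 25 alternatives, with DESeq2 passing on all 12 tumors (0.0516) and on only the groups compared (0.098). After RCM1 it ran from 0.344 to 0.877.

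*Slc11a2* encodes DMT1, which carries the reduced iron out of the endosome. All 12 tumors lay between 15.8 and 19.0 TPM, the narrowest range of the 10 genes as a ratio, 1.2 from lowest to highest. The log2 fold change was 0.12 after VCR (SE 0.0763, adjusted p = 0.375) and 0.15 after RCM1 (SE 0.0763, adjusted p = 0.562), neither called by edgeR. In CPM, though not in TPM, the 3 RCM1 tumors were all above the vehicle tumors and all above the tumors given both.

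The ferritin light chain *Ftl1*, which helps iron to crystallize in the shell, had 4480, 3510 and 4440 TPM in the vehicle tumors. It had 5240, 6120 and 5090 TPM after VCR, 5270, 3800 and 4850 after RCM1, and 4270, 5330 and 5530 TPM after both. All 3 VCR tumors were above all vehicle tumors, while the RCM1 and combination groups overlapped vehicle. VCR gave a log2 fold change of 0.49 (SE 0.165, 95% interval 0.12 to 0.85, adjusted p = 0.129 in edgeR) and RCM1 one of 0.19 (SE 0.165, adjusted p = 0.753), neither called. After VCR the adjusted p ran from 0.03 to 0.457 over 25 alternatives. It was under the threshold in DESeq2 with all 12 tumors (0.0436), in DESeq2 with only the groups compared (0.03), and in edgeR without the VCR tumor m6 (0.0999).

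The heavy chain *Fth1*, which oxidizes iron for storage, had 2720, 2850 and 3450 TPM in the vehicle tumors, 3530, 3150 and 2990 after VCR, 2950, 2870 and 3040 after RCM1, and 2460, 2920 and 3500 TPM after both. All groups overlapped, and the log2 fold changes against vehicle were 0.18 for VCR (SE 0.16, adjusted p = 0.558) and -0.000551 after RCM1 (SE 0.16, adjusted p = 1.0). The light chain was above the heavy chain in all 12 tumors, by a TPM ratio of 1.23 (m2) to 1.94 (m5), and both chains together made up 0.637% (m2) to 0.927% (m5) of all TPM. Of the ferritin family copies with counts of their own, the 7 *Fthl17* genes had at most 2 counts and *Ftmt* had 0 in every tumor. The RefSeq gene table also names 5 ferritin pseudogenes, *Fth-ps2*, *Fth-ps3*, *Ftl1-ps1*, *Ftl1-ps2* and *Ftl2-ps*, to which no reads were assigned separately, so a contribution of such copies to the ferritin counts was not tested.

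*Slc40a1* encodes ferroportin, the exporter of iron from cells. It had 2.06, 2.02 and 1.19 TPM in the vehicle tumors, 2.94, 1.72 and 1.84 after VCR, 2.78, 1.32 and 3.55 after RCM1, and 3.09, 2.66 and 2.32 TPM after both. Each combination tumor was above each vehicle tumor, and the single drug groups overlapped vehicle. VCR gave a log2 fold change of 0.38 (SE 0.329, adjusted p = 0.538) and RCM1 one of 0.57 (SE 0.329, adjusted p = 0.614), and edgeR called neither. It was 0.61 after both as a description (95% interval -0.11 to 1.32).

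The regulators *Aco1* and *Ireb2* encode IRP1, which doubles as a cytosolic aconitase when it holds an iron-sulfur cluster, and IRP2, which is degraded when iron is plentiful. *Aco1* lay between 28.3 and 35.6 TPM in all 12 tumors, with overlapping groups and log2 fold changes against vehicle of -0.0341 (VCR, SE 0.0701) and -0.058 (RCM1, SE 0.0701). *Ireb2* had 23.3, 23.0 and 17.3 TPM in the vehicle tumors, 16.3, 14.6 and 21.4 after VCR, 19.4, 18.2 and 18.6 after RCM1, and 22.9, 19.3 and 15.4 TPM after both. The vehicle tumors m1 and m2 and the combination tumor m10 were highest, the VCR tumor m5 lowest, and the groups overlapped. After VCR the log2 fold change of *Ireb2* was -0.25 (SE 0.133, 95% interval -0.54 to 0.04, adjusted p = 0.291 in edgeR). Without the VCR tumor m6 it was -0.42 and passed (adjusted p = 0.093), over a range of 0.093 to 0.691 in 25 alternatives.

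*Hmox1*, the heme oxygenase that responds to heme and oxidative stress, had 107, 228 and 249 TPM in the vehicle tumors. It had 247, 173 and 183 TPM after VCR, 239, 80.9 and 217 after RCM1, and 137, 199 and 280 TPM after both. The tumors m1 and m8 were far below the others of their groups, and all groups overlapped. Relative to vehicle, *Hmox1* had a log2 fold change of 0.10 after VCR (SE 0.419, adjusted p = 0.913) and -0.12 after RCM1 (SE 0.419, adjusted p = 0.957). Its spread within groups was larger than any difference between them.

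**Figure D2:**
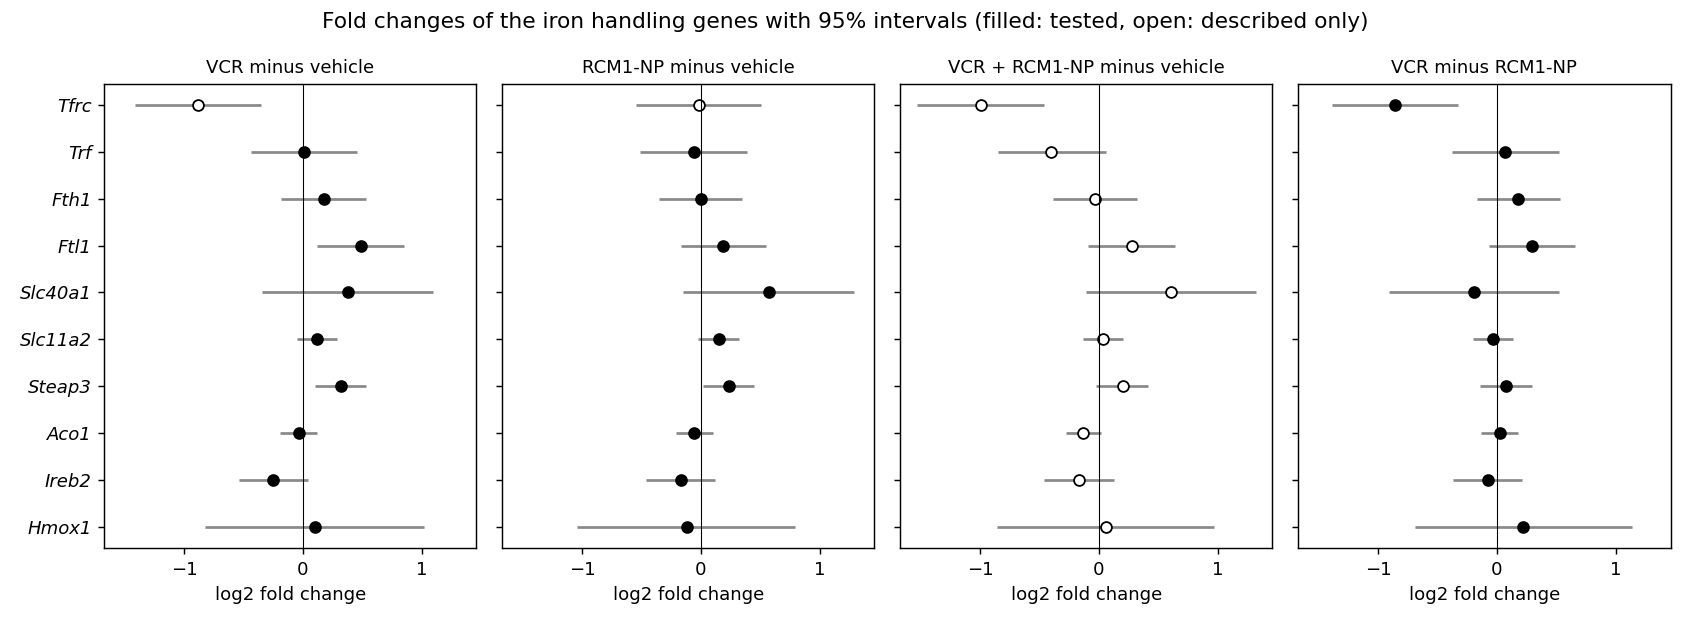
Log2 fold changes (horizontal axes) of the 10 genes in 4 comparisons from the edgeR fit, with 95% intervals (lines); filled points were tested and open points are a description, because those values chose the group. *Tfrc* is at -0.88, -0.0193 and -0.99 against vehicle and at -0.86 for VCR against RCM1, where the adjusted p was 0.901.

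The counts over the group are read against all genes tested. After VCR against vehicle, edgeR called 0 of the 9 members other than *Tfrc*, beside 5.55% of all genes tested, while 2 of the 9 (*Ftl1* and *Steap3*) had an unadjusted p under 0.05, beside 22.1% of all genes. DESeq2 called those 2 with all 12 tumors, beside 13% of all genes, and with only the groups compared, beside 9.15%. limma-voom called 0, beside 3.87%, and edgeR without m6 called 2 (*Ftl1* and *Ireb2*), beside 11.2%. In the other tested comparisons, RCM1 against vehicle, VCR against RCM1, and both drugs against either one, edgeR called 0 members, beside 0.0% of all genes in each. *Tfrc* is counted among the members only for VCR against RCM1, with 10 tested. The other comparisons count the 9 members other than *Tfrc*, which was not tested there. At an unadjusted p under 0.05 there was 1 member for RCM1 against vehicle (*Steap3*), beside 9.78% of all genes, and 1 for VCR against RCM1 (*Tfrc*), beside 5.39%. Of the 9 members other than *Tfrc* there were 0 for both against VCR, beside 5.26%, and 0 for both against RCM1, beside 2.07%. In the same order, DESeq2 on all 12 tumors called 0 members in each, beside 277, 1, 11 and 0 of all genes, and limma-voom called 0, beside 0 of all genes in each, while DESeq2 on only the groups compared called 1, *Tfrc* for VCR against RCM1, among 24 of all genes. The background share after VCR was itself unstable, since edgeR called 977 genes with all tumors, 0 without m2, m4 or m5, 1 without m11, 243 without m12, 281 without m1, 525 without m10 and 2012 without m6.

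Groups did not overlap in CPM for 3 of the 10 after VCR against vehicle, with *Ftl1* and *Steap3* above and *Tfrc* below, beside 24.4% of all genes tested. For RCM1 against vehicle it was 2 (*Slc11a2* and *Steap3* above), beside 11.4%. For both drugs against vehicle, the comparison that chose the group, it was 2 (*Slc40a1* above, *Tfrc* below), beside 12.6%, from which nothing is read. For VCR against RCM1 it was 1 (*Tfrc* below), beside 11.5%. It was 1 for both against VCR (*Trf* below), beside 12.9%, and 2 for both against RCM1 (*Tfrc* and *Slc11a2* below), beside 5.88%. No test of these counts against the background shares was made.

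The median log2 fold change of the 10 was 0.111 after VCR, -0.00991 after RCM1 and 0.000474 after both against vehicle, beside 0.00163, 0.00278 and 0.00157 over all genes tested. It was 0.0475 for VCR against RCM1, -0.106 for both against VCR and -0.0366 for both against RCM1, beside -0.00219, -0.00421 and -0.0057. Members lay on both sides of 0, so the median describes no single one of them. In the combination against vehicle the remaining values, as a description, were -0.40 for *Trf*, 0.28 for *Ftl1*, 0.20 for *Steap3*, -0.17 for *Ireb2*, -0.13 for *Aco1*, 0.0589 for *Hmox1*, 0.0365 for *Slc11a2* and -0.0355 for *Fth1*.

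The members that iron regulatory proteins bind carry the binding hairpin in their untranslated regions. Its sequence is shown because the products of *Aco1* and *Ireb2* act on these members through it. The protein-coding GENCODE transcripts of build GRCm38 were searched on the transcript strand for CNNNNNCAGTGNNNNNN, where the 5 bases after the first C pair with the last 5, G-T pairs included, and the base after CAGTG is not G. A match was found in 4 of the 10 genes, in 0.725% of 58797 transcripts and in 1.01% of 21877 genes. *Fth1*, *Ftl1* and *Slc40a1* hold 1 in the 5′ untranslated region and *Tfrc* holds 4 in the 3′ untranslated region. With 1 more base left unpaired on the 3′ side of the stem (CNNNNNCAGTGNNNNNNN), as in 1.72% of transcripts and 2.36% of genes, *Slc11a2* matched in its 3′ untranslated region, and so did *Epas1* in its 5′ untranslated region. Capitals mark the 6 bases of the loop.
Fth1, chr19:9982733-9982760, plus strand: tcctgcttcaaCAGTGCttgaacggaac
Ftl1, chr7:45459779-45459806, minus strand: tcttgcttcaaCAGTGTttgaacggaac
Slc40a1, chr1:45925465-45925492, minus strand: aacttcagctaCAGTGTtagctaagttt
Tfrc site 1, chr16:32631220-32631247, plus strand: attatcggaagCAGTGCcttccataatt
Tfrc site 2, chr16:32631599-32631626, plus strand: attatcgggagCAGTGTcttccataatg
Tfrc site 3, chr16:32631664-32631691, plus strand: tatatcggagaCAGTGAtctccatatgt
Tfrc site 4, chr16:32631711-32631738, plus strand: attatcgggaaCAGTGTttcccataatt
Slc11a2, chr15:100395152-100395180, minus strand: gccatcagagcCAGTGTgtttctatggtt
Epas1, chr17:86753769-86753797, plus strand: acaatcctcggCAGTGTcctgagactgta

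A match describes the letters only, and binding was not measured. *Trf*, *Steap3*, *Aco1*, *Ireb2* and *Hmox1* had no match to either pattern in these transcripts. Of the matching members tested after VCR, *Ftl1*, *Slc40a1*, *Fth1* and *Slc11a2*, edgeR called none, beside 5.55% of all genes tested. DESeq2 called only *Ftl1* of them with all tumors (adjusted p = 0.0436), beside 13% of all genes. With only the groups compared it also called *Ftl1* alone (adjusted p = 0.03), beside 9.15%. Without the VCR tumor m6, edgeR called *Ftl1* alone of these members (adjusted p = 0.0999), beside 11.2%. Of the other iron genes, *Alas2* and *Bola3* are among those that matched the first pattern in an untranslated region, and *Cisd2* matched the second.

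*Slc11a2* is made with alternative 3′ ends. Among its GENCODE transcripts that were searched, only NM_001146161.1 matched the hairpin, so the split between it and the main transcript was compared. The choice of the group used gene sums and not these shares. The share of the transcript with the hairpin (NM_001146161.1) in the TPM of it and the main transcript without (NM_008732.2) was 37.1, 35.1 and 27.8% in the vehicle tumors. It was 37.6, 30.8 and 42.8% after VCR, 36.1, 52.1 and 41.7% after RCM1, and 33.9, 32.9 and 40.0% after both. The RCM1 tumor m8 was highest and the vehicle tumor m3 lowest, and the groups overlapped. The means were 33.3 ± 4.89% for vehicle (SD, n = 3), 37.0 ± 6.02% for VCR, 43.3 ± 8.11% for RCM1 and 35.6 ± 3.82% for both. A two-sided exact permutation test, which with 3 against 3 tumors cannot go below p = 0.1, gave p = 0.4 for VCR, 0.2 for RCM1 and 0.6 for both against vehicle, each adjusted to 0.6 over the 3 comparisons. Between 9.17% (m6) and 30.6% (m8) of the *Slc11a2* TPM belonged to predicted transcripts whose 3′ ends were not assigned. Among them, XM_030248381.1 reached 21.2% (m5) and XM_030248383.1 reached 11.7% (m11).

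Of the other genes, only *Ireb2* and *Slc40a1* had a further transcript over 10% of TPM in any tumor. *Trf*, *Ftl1*, *Aco1* and *Hmox1* have a single transcript in the index, *Fth1* had all of its TPM in NM_010239.2, and the main transcript held at least 92.8% of *Tfrc* (NM_011638.4) and 90.1% of *Steap3* (NM_133186.4) in every tumor. *Ireb2* was split between NM_022655.3, with 30.1% (m4) to 83.1% (m1) of its TPM, and the predicted XM_017313499.1, with up to 69.1% (m4). For *Slc40a1*, NM_016917.2 held 50.3% (m6) to 100% of TPM, with most of the rest in XM_006496137.3, on few counts.

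**Figure D3:**
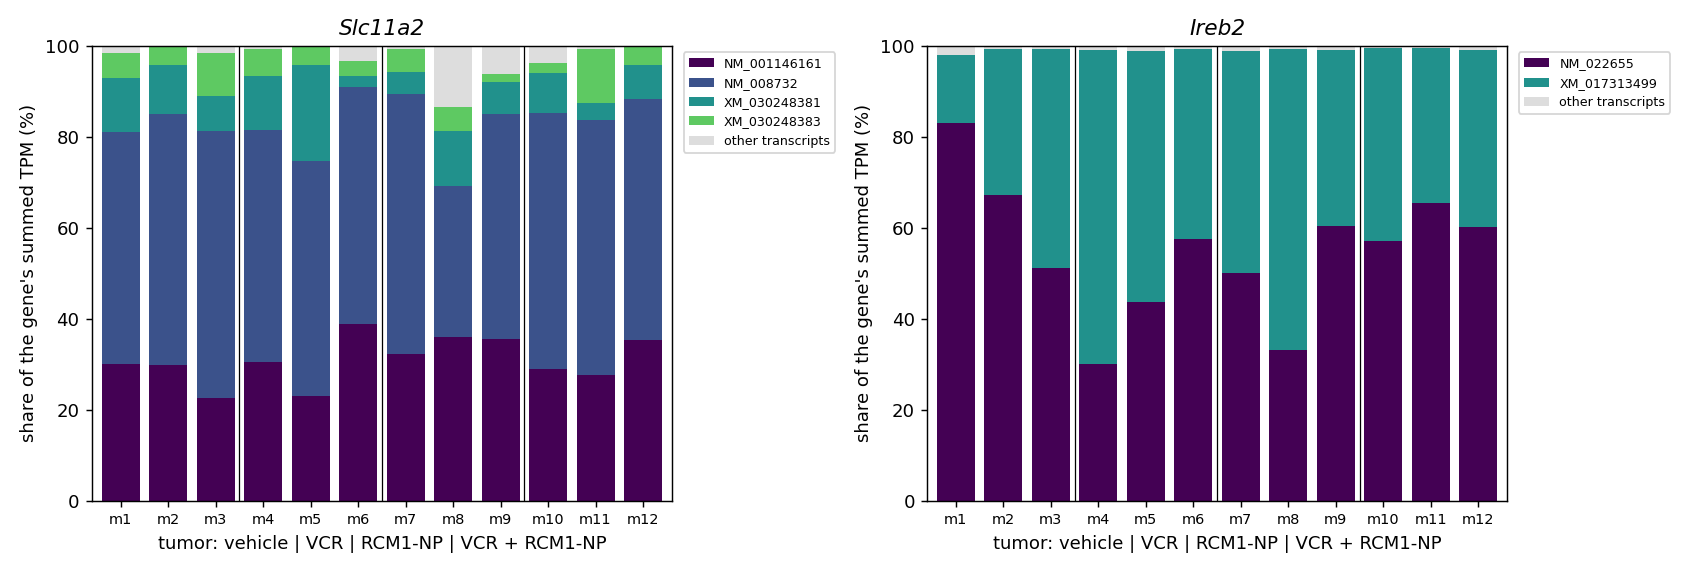
Share of each RefSeq transcript in the summed TPM of *Slc11a2* and *Ireb2* (vertical axes, percent) in the 12 tumors, with vertical lines between the groups. The *Ireb2* transcript NM_022655.3 ranges from 30.1% in m4 to 83.1% in m1, and within the vehicle group from 51.2% to 83.1%.

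A wider list of 108 other genes of iron biology was set beside the group, of which 101 were tested. After VCR against vehicle 5 of them rose and 0 fell, or 4.95%, beside 5.55% of all genes tested, and 29 of the 101 had an unadjusted p under 0.05, beside 22.1% of all genes. Of the 38 genes of mitochondrial iron, iron-sulfur clusters and heme, 4 rose (10.5%), with a median log2 fold change of 0.129 and 30 of 38 values above 0, against a median of 0.00163 over all genes. These were *Nubp2* (0.35, SE 0.0652, adjusted p = 0.0651) and *Ciao3* (0.30, SE 0.0796, adjusted p = 0.088), which act in cytosolic iron-sulfur cluster assembly, *Glrx5* (0.45, SE 0.0893, adjusted p = 0.0676), a mitochondrial glutaredoxin that passes clusters on, and *Iscu* (0.45, SE 0.0948, adjusted p = 0.0694), the scaffold on which clusters are built. The last was *Epas1* (0.71, SE 0.14, adjusted p = 0.0676), the hypoxia factor HIF2α, 1 of 9 in the list of partners that iron regulates (11.1%), whose median was -0.133 with 5 of 9 values below 0. All 3 VCR tumors were above all vehicle tumors for each of the 5.

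*Epas1* had 17.0, 16.3 and 14.3 CPM in the vehicle tumors and 25.6, 30.9 and 21.3 CPM in the VCR tumors. *Glrx5* had 62.5, 68.3 and 68.3 CPM in the vehicle tumors and 90.4, 99.9 and 82.4 CPM in the VCR tumors. *Iscu* had 27.3, 26.9 and 27.3 against 36.8, 42.1 and 32.8 CPM. In each of these the highest tumor was m5, which was also the VCR tumor richest in muscle fiber transcripts. The adjusted p over 25 alternatives ran from 0.000397 to 0.28 for *Nubp2*, 0.000956 to 0.28 for *Glrx5*, 0.000576 to 0.28 for *Epas1*, 0.00183 to 0.281 for *Iscu* and 0.0213 to 0.337 for *Ciao3*. Over the same alternatives the log2 fold change ran from 0.31 to 0.36 for *Nubp2*, 0.38 to 0.50 for *Glrx5*, 0.56 to 0.81 for *Epas1*, 0.35 to 0.51 for *Iscu* and 0.23 to 0.34 for *Ciao3*. Of the 101 genes edgeR called 0 without m2, without m4, without m5 or without m11, where it called 0, 0, 0 and 1 of all genes tested. It called 3 without m1, 9 without m9 and 15 without m6, beside 1.56%, 7.82% and 11.2% of all genes. Without m5 and m9 together it called 2, *Epas1* and *Hjv*, beside 1.42%.

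The remaining sublists held 0 calls in edgeR after VCR, namely uptake and reduction (17 tested, median -0.0132), export and its control (16 tested, median 0.18), storage, chaperones and ferritin turnover (7 tested, median 0.0194), heme breakdown (3 tested, median 0.105) and iron with lipid peroxidation (11 tested, median -0.00114). At an unadjusted p under 0.05 they held 2, 4, 2, 0 and 5 genes, beside 22.1% of all genes. Among all 101 genes DESeq2 called 18 with all 12 tumors, beside 13% of all genes, and 12 with only the groups compared, beside 9.15%. Not tested for low counts were *Ltf*, *Meltf*, *Hephl1*, *Hamp*, *Hamp2*, *Flvcr2* and *Ftmt*, so hepcidin, the hormone that degrades ferroportin, had at most 2 counts from *Hamp* and 1 from *Hamp2* in a tumor.

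In the other comparisons edgeR called 0 of the 101, with 6 at an unadjusted p under 0.05 for RCM1 against vehicle, beside 9.78% of all genes, and 7 for both against vehicle, beside 7.31%. It was 9 for VCR against RCM1, beside 5.39%, 8 for both against VCR, beside 5.26%, and 1 for both against RCM1, beside 2.07%. On all 12 tumors DESeq2 called 2 for RCM1 against vehicle (*Epas1* and *Hjv*), beside 1.57% of all genes, and 0 in the other 4, beside at most 0.347%. With only the groups compared it called 1, 1, 1, 0 and 1 in that order, beside 0.215%, 1.41%, 0.143%, 0.267% and 0.0772% of all genes. *Epas1* had 22.3, 25.7 and 29.3 CPM in the RCM1 tumors and 22.2, 21.7 and 20.9 CPM in the combination tumors, all above the vehicle tumors. Its log2 fold change was 0.70 after RCM1 (SE 0.14, adjusted p = 0.419) and 0.45 after both (SE 0.14, adjusted p = 0.666). The 4 endothelial marker genes summed to 140, 107 and 119 CPM in the vehicle tumors, 145, 191 and 143 after VCR, 146, 143 and 172 after RCM1, and 148, 148 and 153 CPM after both, with *Cdh5* the most abundant. In this sum all 9 treated tumors were above all vehicle tumors, and the part of endothelial RNA in the *Epas1* values was not tested. *Hjv*, a coreceptor for signals that induce hepcidin and a gene of skeletal muscle and liver, had 12, 0 and 0 counts in the vehicle tumors, 374, 1434 and 209 after VCR, 6, 16 and 2213 after RCM1, and 306, 446 and 50 counts after both. Its highest tumors, m9 and m5, were also the highest in adult muscle fiber transcripts, whose part in it was not tested.

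The next genes by smallest p in these comparisons are given as values. *Hp*, the haptoglobin that binds free hemoglobin, had means of 35.3 CPM in vehicle, 27.6 in VCR, 3.41 in RCM1 and 13.6 in combination tumors, and m2 alone had 80.2 CPM. Its lowest tumor was m3 with 1.28 CPM. The adipocyte sum, given further on, was also highest in m2 (87.7 CPM) and lowest in m3 (6.49 CPM). The part of fat RNA in the *Hp* values was not tested. *Nubp2* had 34.4, 43.8, 36.9 and 39.6 CPM in the same order, *Bola2* 25.4, 33.0, 26.7 and 28.1, and *Ciao3* 28.5, 35.0, 30.2 and 30.8. *Erfe*, or erythroferrone, had 94.0, 106, 99.3 and 80.5 CPM, and *Gpx4*, which removes lipid peroxides, 225, 271, 238 and 222 CPM. Heme synthesis begins with *Alas1*, at 21.4, 25.4, 26.9 and 22.9 CPM, and its erythroid form *Alas2*, at 2.56, 1.64, 2.83 and 0.481 CPM. The combination tumors were all below the RCM1 tumors for *Alas2*, *Erfe* and *Epas1* and all above them for *Nubp2*. These groups did not overlap, in either direction, for 5.88% of all genes tested. Against the VCR tumors the combination tumors were all lower for *Erfe*, *Glrx5*, *Nubp2* and *Ciao3*, beside 12.9% without overlap. The genes of this paragraph were picked from the 101 tested by their p in these same tumors. Their lack of overlap is thus in part set by the choice, and nothing is read from it against these shares. *Alas2* is also on the erythroid list, whose sums, given further on, were higher in all RCM1 than in all combination tumors, and the part of red cell RNA in its values was not tested.

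Over the 12 tumors, the other members differed in how they followed *Tfrc*. Pearson's r of log2 CPM, given as a description over 12 tumors in 4 groups, was -0.791 for *Ftl1* (Spearman's rho -0.748), rank 17554 of 17601 genes from the highest down, and it was -0.875 with values centered on group means. *Aco1* had an r of 0.615 (rho 0.545, rank 690, 0.709 within groups), *Ireb2* 0.513 and *Steap3* -0.592 (-0.659 within groups). *Hmox1* had -0.421, *Slc40a1* -0.358, *Fth1* -0.322, *Trf* 0.219 and *Slc11a2* 0.0528. For comparison, the 5% and 95% quantiles of r over all genes tested were -0.604 and 0.587. The tumors with much receptor mRNA, m2 and m8, were thus those with the least ferritin light chain mRNA, also inside their groups.

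The genes most like *Tfrc* were *Eif5a2* (r = 0.903, rho = 0.832), *Echdc1* (0.897 and 0.811), *Zfp759* (0.895 and 0.888), *Cep112* (0.883 and 0.832) and *9030624G23Rik* (0.861 and 0.895). With group means removed, r was 0.79, 0.786, 0.832, 0.824 and 0.676. The most opposed were *Vstm5* (r = -0.906, rho = -0.923), *Rgs16* (-0.886 and -0.762) and *Aldh3b1* (-0.867 and -0.853), with -0.847, -0.715 and -0.697 within groups. They are the ends of a ranking of 17601 genes, so values of this size arise in part from the choice.

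Bulk tumors hold several cell types, so each member was set beside the summed CPM of 3 marker lists, adult muscle fiber, macrophage and erythroid, in 30 relations over 12 tumors with permutation p-values adjusted over the 30. Those of *Tfrc*, which involve vehicle and combination tumors, are a description. None of the others passed after adjustment, the smallest adjusted p being 0.135. The 20 muscle fiber genes summed to 446, 312 and 331 CPM in the vehicle tumors, 4510, 13900 and 2170 after VCR, 412, 553 and 20800 after RCM1, and 2800, 5420 and 813 CPM after both, with *Myh4* the most abundant over all 12. In the 5 tumors m1, m2, m3, m7 and m8, *Eno3* made up 57.8% to 85.3% of the sum and *Myh4* at most 5.06%. All 6 tumors of mice given VCR, and m9, were above those 5. *Tfrc* had an r of -0.615 and a rho of -0.622 with the fiber sum. Without m9 and m5, the tumors farthest from the median, r was -0.695, and within groups -0.463. *Steap3* ran with the sum (r = 0.659, permutation p = 0.0195, adjusted p = 0.195, rho = 0.657, permutation p = 0.024, adjusted p = 0.334), with 0.589 without those tumors and 0.332 within groups. Both relations run along the VCR treatment, and the part of muscle RNA in the *Tfrc* and *Steap3* values was not tested.

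The tumor m9, richest in fiber transcripts, had 28.5 TPM of *Tfrc*, the lowest of the RCM1 group and above all 6 tumors of mice given VCR. The VCR tumor m5, next in fiber transcripts with 13900 CPM, had the lowest *Tfrc* of all tumors, 16.0 TPM. The combination tumor m12 had the least fiber RNA of the 6 tumors of mice given VCR, 813 CPM, and 16.5 TPM of *Tfrc*, near the lowest. These are single tumors, and the part of muscle RNA in their *Tfrc* values was not tested.

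Red cell precursors carry much transferrin receptor. The erythroid list, 13 of 14 genes with counts, summed to 236, 311 and 16.2 CPM in the vehicle tumors, 413, 16.9 and 10.4 after VCR, 335, 166 and 88.8 after RCM1, and 15.4, 10.6 and 22.9 CPM after both, with *Hbb-bs* the most abundant. Its genes *Slc4a1*, *Klf1*, *Gata1* and *Tspo2* were under 1 CPM in every tumor, while *Alas2* reached 4.67, *Epor* 2.65 and *Ermap* 2.26 CPM, and the genes with the highest CPM were globins, which mature red cells also carry. The tumors fell into 6 with 10.4 to 22.9 CPM and 6 with 88.8 to 413 CPM, and for such separate sets no pooled r is given. In the low set *Tfrc* lay between 16.0 and 28.3 TPM and in the high set between 22.8 and 53.7 TPM, where all but the VCR tumor m4 were above the whole low set. As a description, r was -0.21 (rho -0.486) within the low set and -0.056 (rho -0.371) within the high set, a split chosen after seeing the data, and 0.431 over all tumors with group means removed. The part of red cell RNA in the *Tfrc* values was not tested.

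Macrophages recycle iron and express ferroportin and heme oxygenase. The 14 genes of their list summed to 3300, 2470 and 3240 CPM in the vehicle tumors, 3320, 3190 and 3020 after VCR, 3180, 3670 and 2840 after RCM1, and 2540, 3240 and 3600 CPM after both, with *Lyz2* the most abundant. Markers of the iron-recycling macrophages of the spleen and of resident macrophages, *Spic* and *Vsig4*, were under 1 CPM in every tumor, while *Timd4* reached 1.55, *Cd5l* 2.91 and *Cd163* 7.01 CPM. The member that followed the list most closely was *Trf* (r = 0.751, permutation p = 0.00451, adjusted p = 0.135, rho = 0.678, permutation p = 0.0188, adjusted p = 0.334). Without m2 and m10 r was 0.542, and within groups 0.927, which passed (adjusted p = 0.0926, over a range of 0.0926 to 0.451 in the alternatives). *Ireb2* ran the other way (r = -0.587, permutation p = 0.0453, adjusted p = 0.251, rho = -0.552, permutation p = 0.0673, adjusted p = 0.337), with -0.304 without m2 and m10 and -0.576 within groups. *Tfrc* had an r of -0.159, which was 0.185 without those tumors. For *Slc40a1* r was -0.302 (-0.477 within groups) and for *Hmox1* -0.0709 (-0.0694 within groups).

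**Figure D4:**
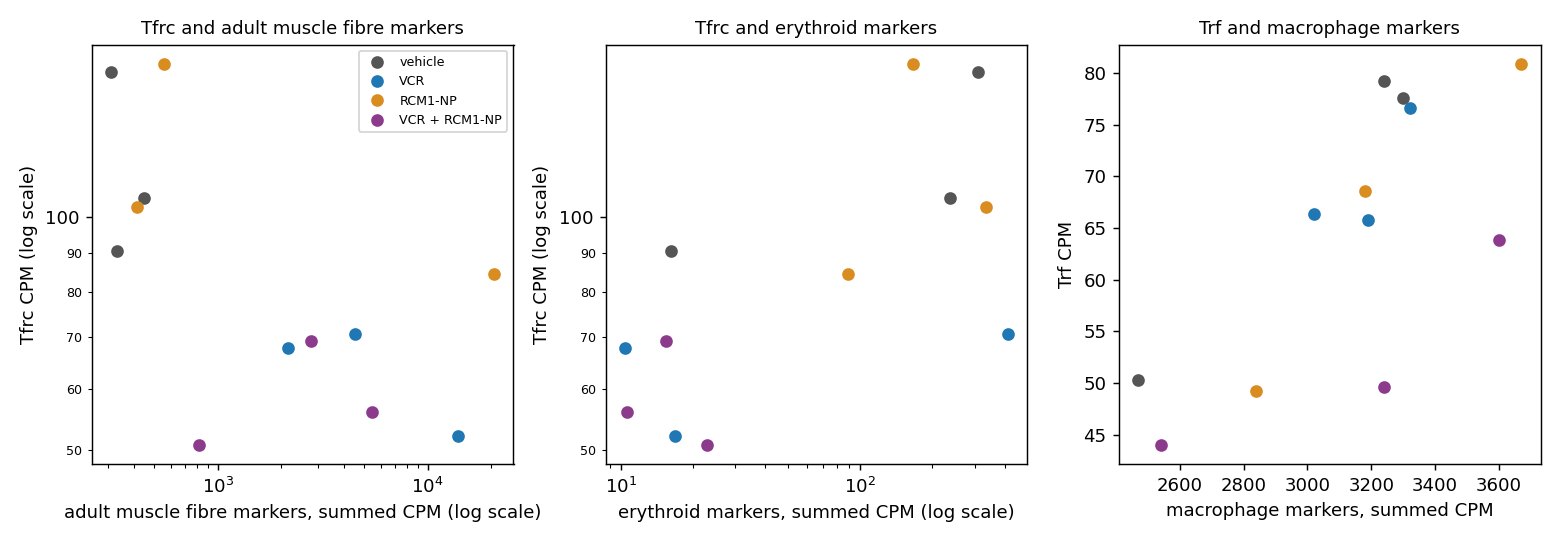
*Tfrc* CPM against the summed CPM of the adult muscle fiber and erythroid lists (log axes), and *Trf* CPM against the summed CPM of the macrophage list (linear axes), for 12 tumors (points, colored by group). The erythroid sums leave a gap between 22.9 and 88.8 CPM, and the tumors with the smallest macrophage sums, m2, m10 and m9, are with m11 the 4 lowest in *Trf*.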

How the data were processed

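RNA from 12 tumors was sequenced in poly-A libraries, made with a stranded kit but called non-stranded in the labels. The authors deposited, per RefSeq transcript, estimated counts, TPM and, as another value, effective lengths in bases. By the submitters' processing notes, the authors made these estimated counts and TPM with kallisto on GRCm38, and the notes also name DESeq2. All 120299 transcripts matched a gene. Counts and TPM were summed per gene and the expected counts rounded. edgeR 4.0.16 (R 4.3.3) fitted all 12 tumors together, with TMM factors, filterByExpr at a minimum count of 10, the quasi-likelihood test and a threshold of 0.1 on Benjamini-Hochberg adjusted p. CPM uses those factors, and correlations use log2 of CPM plus 0.1 and 100000 two-sided permutations. limma 3.58.1, DESeq2 1.42.0 and the settings under the processing section were alternatives. So were edgeR with no filter on counts, with offsets for transcript length and with robust empirical Bayes estimates. Python 3.11.15, numpy 2.4.6, pandas 2.3.3 and scipy 1.17.1 did the rest. The fit was tested on simulated data.

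The members and lists were chosen with earlier results of these data known. Named are all members, up to 8 other iron genes per comparison that pass, by size of change (where fewer than 3 pass, the 3 with the smallest p), the 5 genes with the highest and the 3 with the lowest r with *Tfrc*, transcripts over 10% of a member's TPM, ferritin copies, and the most abundant gene of each marker list. Hairpins were searched in GENCODE transcripts.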

Additional observations from a re-analysis of the deposited data

How the results depend on the processing

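The log2 fold changes of the members that were tested after VCR or RCM1 against vehicle and for VCR against RCM1 were recomputed in 700 combinations of gene, comparison and alternative setting. For both drugs against either one only the calls were recomputed, without *Tfrc*, with 0 of the other members called in every setting. Of the 700 combinations 658 kept their direction and side of the threshold, 7 passed the threshold only in the alternative, and 35 changed sign, 23 of them on leaving out a tumor. All that changed sign failed the threshold in both settings. The values against vehicle given as a description had 300 such combinations, all within 1 SD of the tumors, and 12 of these changed sign. They belong to *Tfrc* after RCM1 (-0.32 to 0.22) and, after both drugs, to *Fth1* (-0.21 to 0.13), *Slc11a2* (-0.0134 to 0.0669) and *Hmox1* (-0.27 to 0.34). The cause was not tested.

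Members other than *Tfrc* called after VCR against vehicle numbered 0 in edgeR (5.55% of all genes) and 0 to 2 without 1 tumor (0 to 11.2%). In DESeq2 they numbered 2 with all 12 tumors (13%) and 2 with only the groups compared (9.15%). For VCR against RCM1 DESeq2 with only the groups compared called 1 (0.143%). Of the other iron genes, 5 were called after VCR (5.55% of all genes). With a mean of at least 50 counts it was 9 (9.37%), with only the groups compared 3 (2.76%), in DESeq2 18 (13%), in DESeq2 with only the groups compared 12 (9.15%), and at a threshold of 0.05 it was 0 (0.0511%). A term for a Y-linked sum above 1 CPM, which also takes in m1, m2 and m10, gave 0 (0 of all genes), and that term set at 10 CPM, chosen after seeing the data, gave 4 (2.14%). It was 2 without m5 and m9 (1.42%) and 0 to 15 without one tumor (0 to 11.2%). For RCM1 against vehicle DESeq2 called 2 (1.57%) and, with only the groups compared, 1 (0.215%). With only the groups compared it called 1 in the combination against vehicle (1.41%), 1 for VCR against RCM1 (0.143%) and 1 in the combination against RCM1 (0.0772%). Without m5 and m9 edgeR called 1 in the combination against vehicle, *Hjv*, beside 0.772% of all genes.

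*Trf* after VCR was 0.0118 and became -0.00317 with DESeq2 size factors, -0.011 with the filter at a mean of 50, -0.00513 with only the groups compared, -0.00313 in DESeq2, -0.00287 in DESeq2 with only the groups compared, and -0.0421 when tumors with over 10 CPM of Y-linked transcripts got their own term, which was chosen after seeing the data. Without m5 and m9, *Trf* became 0.12 after RCM1, and for VCR against RCM1 *Trf* became -0.0693, *Slc40a1* 0.21, *Slc11a2* 0.00457 and *Aco1* -0.0121. *Fth1* after RCM1 became 0.0164 in limma-voom. Without one tumor, the values after VCR ran from -0.19 to 0.12 for *Trf* and from -0.21 to 0.39 for *Hmox1*. After RCM1 they ran from -0.25 to 0.12 for *Trf*, -0.0994 to 0.17 for *Fth1*, -0.11 to 0.0016 for *Aco1* and -0.43 to 0.22 for *Hmox1*. For VCR against RCM1 they ran from -0.11 to 0.24 for *Trf*, -0.49 to 0.0972 for *Slc40a1*, -0.10 to 0.00464 for *Slc11a2*, -0.042 to 0.0777 for *Aco1*, -0.23 to 0.00603 for *Ireb2* and -0.12 to 0.49 for *Hmox1*.

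Centered on group means, 1 of 30 correlations passed, *Trf* with macrophage markers. The r of *Tfrc* with macrophage markers became 0.185 without m2 and m10, and that with erythroid markers, above 0 over all tumors, became -0.21 and -0.056 within the sets below and above the gap in their sums, a split chosen after seeing the data. With 3 tumors per group, small changes and those of *Slc40a1* are limited by depth and spread.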

Other observations

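Hypoxia raises *Tfrc* transcription in many cells, and the 8 hypoxia genes summed to 920, 1160 and 1680 CPM in the vehicle tumors, 729, 689 and 792 after VCR, 1280, 740 and 1050 after RCM1, and 776, 779 and 912 CPM after both, with *Vegfa* the most abundant. All 3 VCR tumors and all 3 combination tumors were below all vehicle tumors, and the RCM1 tumor m8, high in *Tfrc*, was low in this sum. The 8 cell cycle genes summed to between 1680 (m3) and 2250 CPM (m2), with *Top2a* the most abundant. Their relation to *Tfrc* was not tested.

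Other cell types gave smaller sums. The adipocyte list summed to between 6.49 (m3) and 87.7 CPM (m2), led by *Fabp4*, the Schwann cell list to between 11.4 and 22.7 CPM, led by *Mbp*, and the keratinocyte list to between 5.04 and 6.52 CPM, led by *Krt10*. The embryonal muscle list summed to between 191 (m1) and 805 CPM (m9), led over all 12 tumors by *Cdh15* and in m9 by *Des* with 71.1% of the sum.

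Y-linked transcripts, led by *Eif2s3y*, summed to 16.2 to 26.0 CPM in 7 tumors (m3, m4, m6, m8, m9, m11 and m12) and to 0.529 to 1.3 CPM in the other 5, in which *Xist* was at 65.5 to 99.9 CPM. *Tfrc* was at 28.3 TPM in the vehicle tumor with Y-linked transcripts and at 37.1 and 53.7 TPM in those without. It was at 22.8 and 22.9 with and 16.0 TPM without them after VCR, 51.2 and 28.5 with and 34.4 without after RCM1, and 19.1 and 16.5 with and 24.5 TPM without after both.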
